A study of Mus musculus with 6 samples.

Results

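The Schlafen family of the mouse was followed through 7 genes, Slfn1, Slfn2, Slfn3, Slfn4, Slfn5, Slfn8 and Slfn9, in total RNA of whole lungs. They were chosen by symbol: each has 1 probe on the array, so the family accounts for 7 probes of 41174, or 7 genes of the 16358 whose probes could be matched to a gene symbol. The lungs came from C57BL/6 mice of 3 genotypes: hCD2-T-bet tg/tg and hCD2-T-bet tg/wt, which by their labels carry a T-bet transgene on both or on 1 chromosome copy, and WT mice. The transgene is named for human CD2, a gene whose regulatory sequence is used to drive expression in T cells. Each genotype was measured on 2 single-colour arrays, called tg/tg 1 and 2, tg/wt 1 and 2, and WT 1 and 2. T-bet, the product of Tbx21, directs the T helper 1 programme of T cells, the cells in which the transgene is overexpressed, and the series concerns pulmonary alveolar proteinosis, a build-up of surfactant in the alveoli. The sources used here give no age, do not say whether replicate arrays are separate animals, and name no founder line, so each p-value reflects the spread from array to array, which may be technical.

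Schlafen genes, named after the German word for sleeping, were found as genes that change during the maturation of mouse T cells and slow cell growth, and many of them are induced by interferons. Their proteins share a core region that in several members binds or cuts RNA, transfer RNA in particular. Short members (Slfn1 and Slfn2) hold little more than that core, intermediate members (Slfn3 and Slfn4) add a linker region, and long members (Slfn5, Slfn8 and Slfn9) add a helicase-like region.

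A level is given throughout as log2 of the background-corrected spot intensity minus log2 of that array's 75th percentile intensity, so that 0 means a spot as bright as the 75th percentile of its array. The 75th percentiles lay between 794 and 1204 intensity units, and between 62.0% and 66.8% of the probes on an array were bright enough to be marked well above background. Tbx21 had levels of 3.25 and 3.26 on the tg/tg arrays, 1.30 and 1.34 on the tg/wt arrays, and -0.70 and -0.71 on the WT arrays, which follows the labelled genotypes. It was 15.6-fold above WT in tg/tg lungs (adjusted p = 6.38e-07) and 4.06-fold above WT in tg/wt lungs (adjusted p = 1.05e-04). The tg/tg and WT arrays lay on slide 1 and the tg/wt arrays on slide 2, so in both comparisons with tg/wt the slide and the genotype cannot be told apart.

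The 7 genes lie in 1 cluster on chromosome 11, in the order Slfn5, Slfn9, Slfn8, Slfn2, Slfn1, Slfn4 and Slfn3. All 7 had a promoter sequence in RefSeq (GRCm38.p6), running from 250 bases before to 50 bases after the start of transcription; Slfn8 has 2 starts, which gives 8 windows. The promoters of Slfn8 and Slfn9 were 80.5% identical (248 of 308 aligned columns), while no other pair of members passed 48.8%. Each promoter was searched on both strands for 4 motifs: the core of the interferon-stimulated response element (GAAANNGAA), the gamma-activated site (TTCNNNGAA), a T-box site (GGTGTGA) and the NF-kB site. The interferon-stimulated core was found in Slfn5, Slfn8 and Slfn9 and in 8.6% of all 32851 promoters. The gamma-activated site (8.3% of all promoters) and the T-box site (4.0%) were found in none of the 8 windows, and the NF-kB site (4.5%) in Slfn1 and Slfn9. A match is only a match of letters, and none of these sites was measured. The stretches around the interferon-stimulated core are shown for the 3 long members because they separate these from the short and intermediate ones. Each reads 5′ to 3′ on the gene's own strand, with the match in capitals, which is read on the opposite strand in Slfn8 and Slfn9.
Slfn8, chr11:83020823-83020883, minus strand: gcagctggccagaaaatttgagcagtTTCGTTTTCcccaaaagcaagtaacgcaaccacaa
Slfn9, chr11:82991840-82991900, minus strand: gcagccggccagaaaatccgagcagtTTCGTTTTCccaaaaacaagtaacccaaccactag
Slfn5, chr11:82951921-82951981, plus strand: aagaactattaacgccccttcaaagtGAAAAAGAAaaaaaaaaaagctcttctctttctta

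In Slfn8 the match began at position -47 from its first start and in Slfn9 at position -44, counted from the start of transcription, and in Slfn5 it began at -155 with another match at -132. Reading the remaining 4 promoters showed a further shared stretch, which holds the letters AGGAAGT of an ETS-type site on the opposite strand, so this motif was added after the sequences were seen. It occurred in 9.4% of all promoters, in Slfn1, Slfn2, Slfn3 and Slfn4, and in no window of the 3 long members. Slfn1 and Slfn4 shared 15 bases in a row there, starting at -74 in Slfn1 and -73 in Slfn4, and Slfn3 held the letters a further time at -59. The 4 stretches are shown because they are the part that the short and intermediate members have in common, with the ETS-type match in capitals.
Slfn1, chr11:83116720-83116778, plus strand: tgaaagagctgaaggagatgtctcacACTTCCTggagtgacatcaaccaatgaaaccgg
Slfn4, chr11:83175087-83175145, plus strand: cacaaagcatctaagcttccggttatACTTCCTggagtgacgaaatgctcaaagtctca
Slfn2, chr11:83065031-83065089, plus strand: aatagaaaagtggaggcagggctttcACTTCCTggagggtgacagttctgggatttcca
Slfn3, chr11:83191262-83191320, plus strand: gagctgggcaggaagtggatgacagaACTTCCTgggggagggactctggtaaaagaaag

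**Figure D1:**
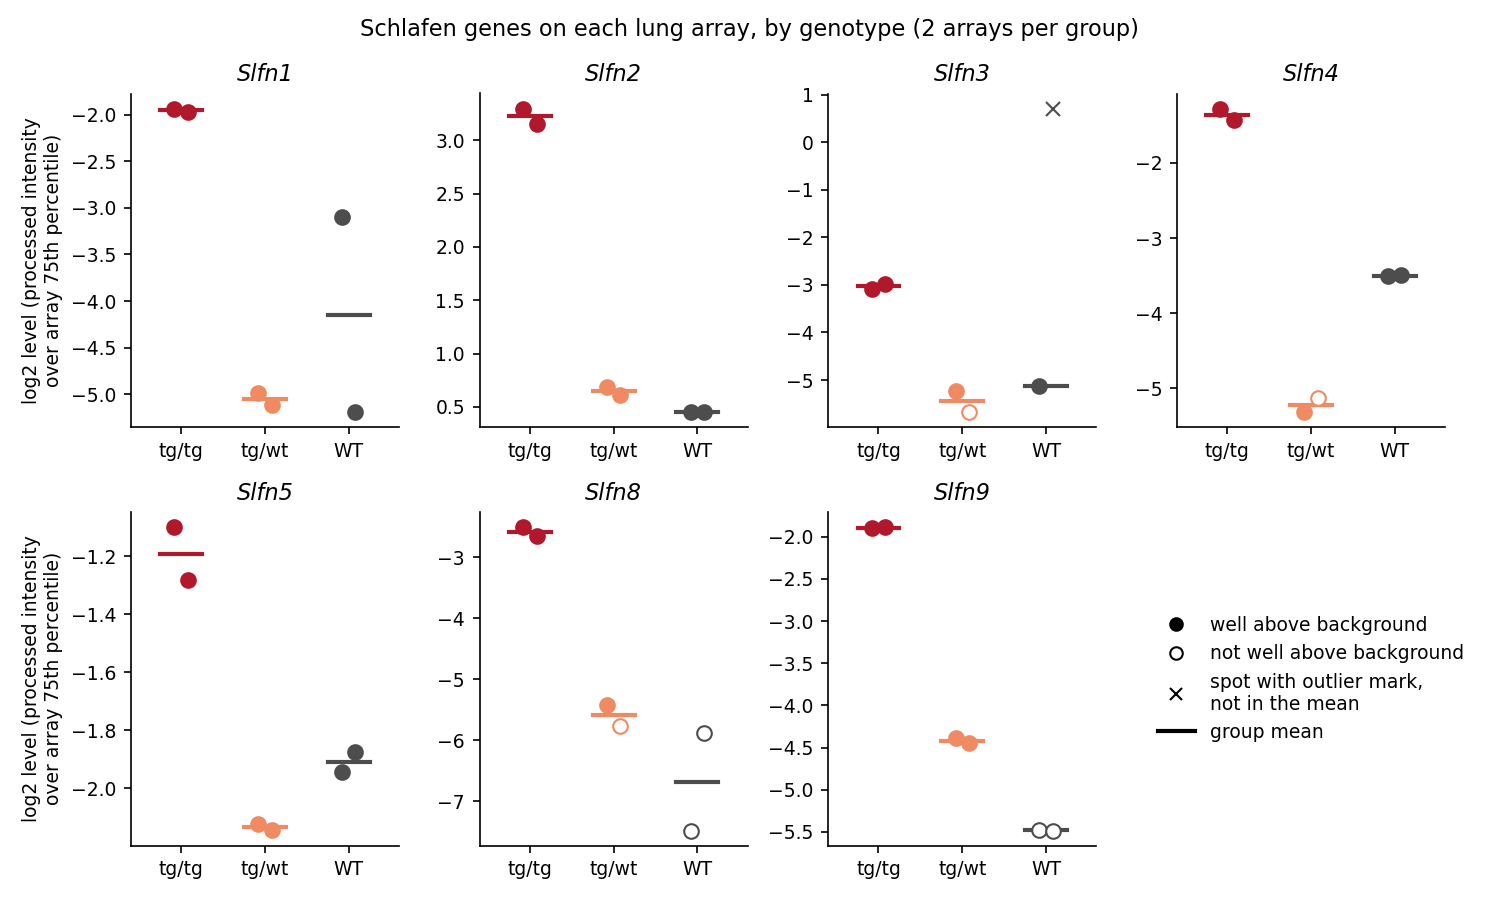
Level of each Schlafen gene (vertical axis, log2 of processed intensity over the array's 75th percentile, with a scale of its own in every panel) on the 2 arrays of tg/tg, tg/wt and WT lungs; lines are group means, open points were not well above background, and the cross is a spot with an outlier mark. The tg/tg points lie highest in every panel once the marked Slfn3 spot of WT 2 is set aside, while the order of tg/wt and WT differs between genes.

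Across the family, tg/tg lungs had the highest levels of all members whose spots could be used. Between tg/wt and WT lungs, Slfn9 was called higher and Slfn4 lower in tg/wt lungs, and the other members tested were not called. These counts lie near the 13.4% higher and 14.6% lower of all genes tested, and slide and genotype cannot be told apart there. Slfn3 lacks a usable spot on 1 WT array and did not enter the main test, which left 6 members among 12968 genes; Slfn8 passed the filter on dim probes only through its tg/tg arrays. All 6 members tested were higher in tg/tg than in WT lungs, where 33.8% of all genes tested were called higher and 74.7% were called in either direction. The median log2 difference was 2.48 for the 6 members and -0.053 for all genes tested. In whole-lung RNA, more cells of a type and more RNA per cell cannot be told apart. Each gene rests on 1 probe, and because the probe sequences were not used here, it was not checked whether a probe also reads a close relative such as Slfn8 for Slfn9.

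Among the short members, Slfn2 keeps mouse T cells and monocytes in a resting state and shields transfer RNA from cleavage. Its levels were 3.30 and 3.16 on the tg/tg arrays, 0.69 and 0.61 on the tg/wt arrays, and 0.45 on each WT array. The tg/tg arrays stood far above the other 4, and the tg/wt arrays lay slightly above the WT arrays without overlap. Slfn2 was 6.84-fold above WT in tg/tg lungs, a log2 difference of 2.77 with a standard error of 0.0610 (adjusted p = 3.90e-06), and 5.97-fold above tg/wt in tg/tg lungs (adjusted p = 5.69e-06). Its log2 difference of 0.20 between tg/wt and WT lungs missed the threshold (adjusted p = 0.0730, 95% interval 0.038 to 0.36). It passed when tg/tg 1 or tg/tg 2 was left out (adjusted p = 0.0476 each), and also with another background correction, with an intensity trend or with only the tg/wt and WT arrays in the fit.

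Slfn1, which slows the growth of mouse T cells when overexpressed, had WT arrays that disagreed. Its levels were -1.94 and -1.97 on the tg/tg arrays, -4.98 and -5.11 on the tg/wt arrays, and -3.10 and -5.19 on the WT arrays. WT 1 stood between the tg/tg and the tg/wt arrays, and WT 2 lay just below the tg/wt arrays, so tg/wt and WT overlapped. The gap of 2.09 between the WT arrays was larger than that of 99.8% of genes, whose median was 0.0459; the WT 1 spot read 110 units with a software error of 11.8, and the WT 2 spot 26.4 units with an error of 5.25. Slfn1 was 4.57-fold above WT in tg/tg lungs, a log2 difference of 2.19 with a standard error of 0.678 (adjusted p = 0.0344). That difference was 3.24 without WT 1 and 1.15 without WT 2, with adjusted p-values of 6.71e-05 and 6.06e-04; with 1 WT array left, that array is assumed to vary like the other groups. The call was lost without tg/tg 1 (adjusted p = 0.113), without tg/tg 2 (adjusted p = 0.110) and without either tg/wt array (adjusted p = 0.0664 each), which is also the value with only the slide 1 arrays in the fit. Slfn1 was 8.53-fold above tg/wt in tg/tg lungs (adjusted p = 0.0108), a call lost without tg/wt 2 (adjusted p = 0.0530). The log2 difference between tg/wt and WT lungs was -0.90 (adjusted p = 0.365, 95% interval -2.67 to 0.87), and without WT 2 it was -1.95 (adjusted p = 0.00508).

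Of the intermediate members, Slfn4 is known from mouse macrophages and other myeloid cells, where interferon induces it, and it gave the clearest difference in sign between the transgenic genotypes. Its levels were -1.28 and -1.44 on the tg/tg arrays, -5.31 and -5.13 on the tg/wt arrays, and -3.51 and -3.49 on the WT arrays. The WT arrays lay between the other groups, with no overlap anywhere. Slfn4 was 4.42-fold above WT in tg/tg lungs, a log2 difference of 2.14 with a standard error of 0.0844 (adjusted p = 2.12e-05). In tg/wt lungs it was 3.29-fold lower than in WT lungs, a log2 difference of -1.72 (adjusted p = 7.26e-04, where 14.6% of genes were called lower and 13.4% higher), and 1 of the 2 tg/wt spots was well above background. The contrast between tg/tg and tg/wt lungs was 14.5-fold (adjusted p = 4.56e-06), the widest of the 6 members in that comparison, although with normexp, another background correction, it was 4.88-fold, against 5.38-fold for Slfn2. Of all genes tested, 0.208% had a lower log2 difference between tg/wt and WT lungs.

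Slfn3 takes part in T cell subsets and in the maturation of the gut lining in rodents. Its levels were -3.09 and -2.97 on the tg/tg arrays, -5.23 and -5.67 on the tg/wt arrays, and -5.13 on WT 1. On WT 2 the spot carried the software's mark for an uneven spot: it read 1573 units with an error of 577, although the median of its pixels was 152 units before background subtraction, against 108 on WT 1. Without that spot the tg/tg arrays stood above the other 3, and tg/wt 2 was not well above background. With genes of 1 missing spot allowed into the fit, a choice made after the spot was seen, Slfn3 was above the 1 WT array in tg/tg lungs by a log2 difference of 2.10 (standard error 0.209, adjusted p = 0.00160), with that array assumed to vary like the other groups, and above tg/wt in tg/tg lungs by 2.42 (adjusted p = 5.81e-04). Between tg/wt and WT lungs the difference was -0.32 (adjusted p = 0.320). With the marked spot kept at its level of 0.71, the difference between tg/tg and WT lungs turned to -0.82 (adjusted p = 0.714), and that between tg/tg and tg/wt lungs lost its call (adjusted p = 0.297).

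Among the long members, Slfn9 had the smallest standard error. Its levels were -1.90 and -1.89 on the tg/tg arrays, -4.39 and -4.45 on the tg/wt arrays, and -5.48 on each WT array. The 3 groups formed 3 separate steps, but neither WT spot was well above background. The WT spots read 21.3 and 21.6 units with software errors of 4.77 and 5.03, so their agreement was closer than these errors. Folds against a group with no spot well above background are given as bounds. Each bound sets the brighter mean against the higher of the dim spot and the dimmest signal called well above background on that array. Both Slfn9 WT spots lay above that signal, so its bound is the fitted fold and no firm lower limit. Slfn9 was 12.0-fold above WT in tg/tg lungs (fitted log2 difference 3.59, standard error 0.0366, adjusted p = 6.68e-07). In tg/wt lungs it was 2.09-fold above WT (fitted log2 difference 1.06, adjusted p = 3.47e-04). With normexp these folds were 3.76 and 1.24, with adjusted p-values of 1.86e-06 and 0.0292. Slfn9 was 5.75-fold above tg/wt in tg/tg lungs (adjusted p = 1.84e-06).

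Slfn8, which slows T cell division in mice that overexpress it, had levels of -2.51 and -2.65 on the tg/tg arrays, -5.42 and -5.76 on the tg/wt arrays, and -7.48 and -5.89 on the WT arrays. The tg/tg arrays stood well apart, and the other 4 were near or below background: neither WT spot and 1 of the 2 tg/wt spots were well above it. The WT 1 spot read 5.30 units with a software error of 4.73, so its log2 level is poorly fixed. Slfn8 was at least 7.78-fold above WT in tg/tg lungs (adjusted p = 0.00155) and 8.06-fold above tg/wt in tg/tg lungs (adjusted p = 0.00498). Between tg/wt and WT lungs no fold is given; the fitted log2 difference was 1.09 (adjusted p = 0.187, 95% interval -0.29 to 2.48). Without WT 2 it was 1.89 (adjusted p = 0.0125), a value that rests on the poorly fixed WT 1 spot and on a spread taken from the other groups.

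Slfn5, whose human counterpart represses interferon-driven transcription, had the smallest differences of the 6 in both comparisons with tg/tg lungs. Its levels were -1.10 and -1.28 on the tg/tg arrays, -2.12 and -2.15 on the tg/wt arrays, and -1.94 and -1.88 on the WT arrays. The tg/tg arrays lay highest and the tg/wt arrays slightly below the WT arrays, without overlap. Slfn5 was 1.65-fold above WT in tg/tg lungs, a log2 difference of 0.72 with a standard error of 0.0706 (adjusted p = 5.44e-04), and 1.92-fold above tg/wt in tg/tg lungs (adjusted p = 2.10e-04). Its log2 difference of -0.23 between tg/wt and WT lungs missed the threshold (adjusted p = 0.0749, 95% interval -0.41 to -0.041), and passed it without tg/tg 1 or tg/tg 2 (adjusted p = 0.0333 each).

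**Figure D2:**
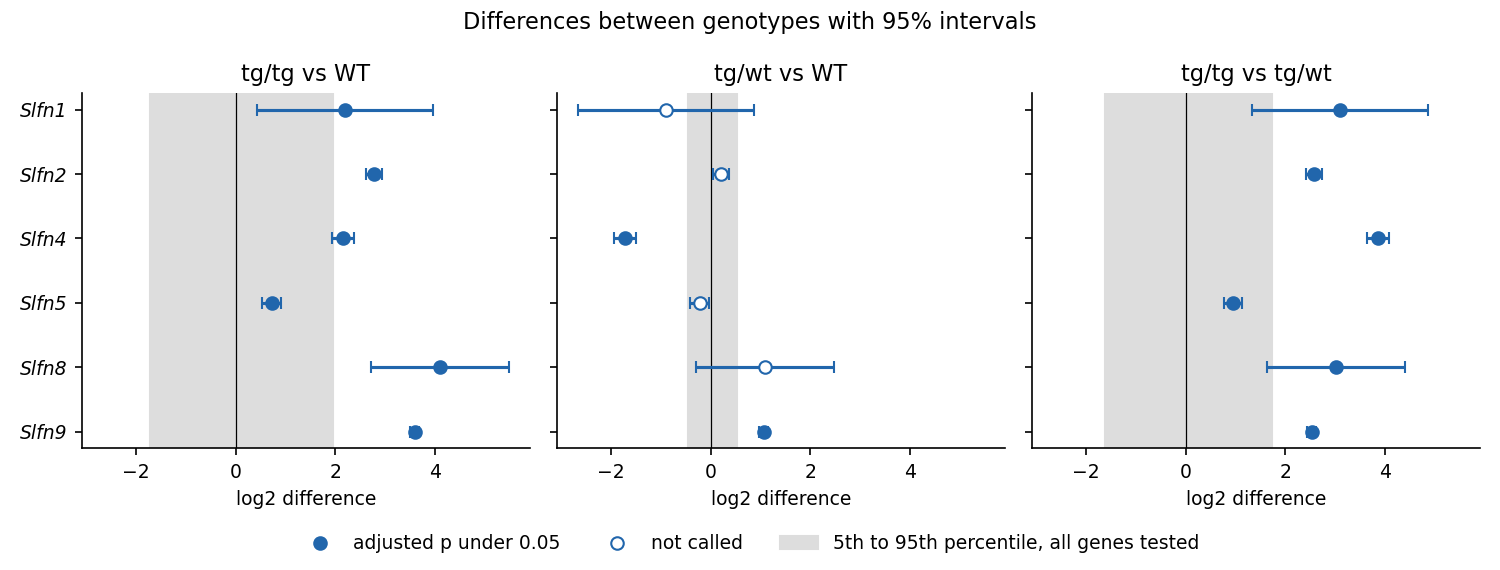
Fitted log2 difference (horizontal axis) of the 6 Schlafen genes tested, with 95% intervals, for tg/tg against WT, tg/wt against WT and tg/tg against tg/wt; the grey band spans the 5th to the 95th percentile of all 12968 genes. In both comparisons with tg/tg lungs every interval lies right of 0, and in tg/wt against WT the filled points are Slfn9 at 1.06 and Slfn4 at -1.72.

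The other Schlafen-named genes added little. Slfnl1 had 1 probe, which was well above background on none of the 6 arrays, and no probe of the array was matched to Slfn14, Slfn10-ps or Slfn5os. Between tg/tg and tg/wt lungs all 6 members were again higher in tg/tg lungs (34.0% of all genes tested), with a median log2 difference of 2.79 against -0.050 for all genes. This comparison shares its tg/tg arrays with the first, and Slfn8 passed the filter on dim probes only through those arrays. Between tg/wt and WT lungs the members' median was -0.014, against -0.0050 for all genes, with 1 member called higher, 1 lower and 4 not called, where 27.9% of all genes were called in either direction.

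The members differed in how the change was spread over the 2 steps of transgene number. To compare the steps, the tg/wt to WT difference was subtracted from the tg/tg to tg/wt difference in the same fit, a contrast added after the levels were seen. Tbx21 itself came out at -0.086 and missed the threshold (adjusted p = 0.261). The value was 5.58 for Slfn4 (adjusted p = 3.14e-05), 2.38 for Slfn2 (adjusted p = 1.04e-04), 1.46 for Slfn9 (adjusted p = 9.82e-05) and 1.17 for Slfn5 (adjusted p = 0.00127). Slfn1 reached 3.99 (standard error 1.17, adjusted p = 0.0366), with WT arrays that lay 2.09 apart. Slfn8 came out at 1.92 and did not pass (adjusted p = 0.133). Over all genes 27.9% were called positive and 32.1% negative in this contrast, and because tg/wt had a slide of its own, slide and genotype cannot be told apart in it. The contrast also uses dim spots, among them both WT spots of Slfn9 and 1 tg/wt spot of Slfn4. For Slfn4, normexp gave 2.29 between tg/tg and tg/wt lungs and -0.79 between tg/wt and WT lungs, against 3.86 and -1.72 in the main fit.

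For each member tested, the 2 genes outside the family with the nearest profile were found, leaving out genes with clone-type or predicted-gene symbols. Nearness was the root mean square difference over the 6 arrays, each gene centred on its WT mean. Slfn2 lay nearest to Oas2 (0.0505), an interferon-induced enzyme that senses double-stranded RNA, and Cd200r1 (0.0586), an inhibitory receptor of myeloid cells. Oas2 was 7.11-fold above WT in tg/tg lungs and differed by a log2 value of 0.16 between tg/wt and WT lungs (adjusted p = 0.0766). Slfn4 lay nearest to Cdhr1 (0.191), a cadherin known from photoreceptors, and Camp (0.196), an antimicrobial peptide of neutrophil granules. Cdhr1 was not well above background in tg/wt or WT lungs. Camp was 5.41-fold above WT in tg/tg lungs, and at least 2.65-fold lower in tg/wt than in WT lungs (adjusted p = 0.00130). Slfn9 lay nearest to Dusp2 (0.101), a phosphatase of activated lymphocytes, and Cd5 (0.112), a receptor on T cells. Cd5 was 11.7-fold above WT in tg/tg lungs and 2.38-fold above WT in tg/wt lungs. Slfn5 lay nearest to Anxa1 (0.0494), a lipid-binding protein that limits inflammation, and Coa7 (0.0536), a mitochondrial protein. Slfn8 lay nearest to Gbp2b (0.233), an interferon-induced GTPase, and Igf2bp3 (0.321), an RNA-binding protein, neither of them well above background in tg/wt or WT lungs. Slfn1, with its split WT arrays, lay farthest from its nearest genes: Ivl lay at 0.318 and Itln1 at 0.478, and neither was well above background in tg/wt or WT lungs. Between members, Slfn8 and Slfn9 lay nearest to each other (0.559), and Slfn5 and Slfn8 farthest apart (2.14).

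**Figure D3:**
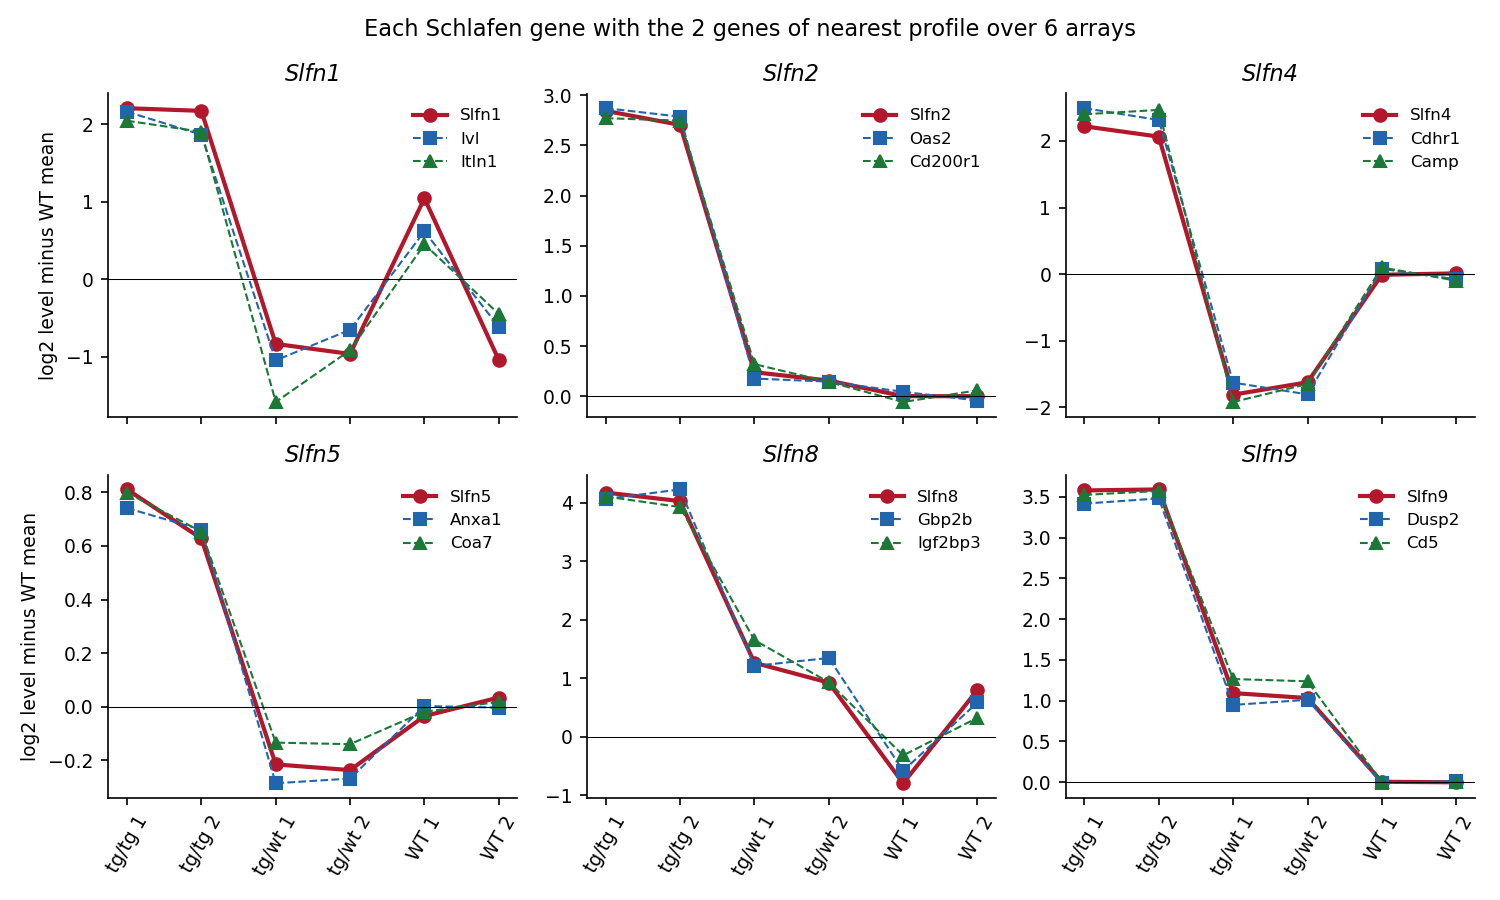
Log2 level minus the WT mean (vertical axis, scale differing between panels) of each Schlafen gene tested and of its 2 nearest genes on the 6 arrays, tg/tg left and WT right. Slfn4 with Cdhr1 and Camp dips on the tg/wt arrays, Slfn9 with Dusp2 and Cd5 falls in 2 steps, and Slfn2 with Oas2 and Cd200r1 is high on the tg/tg arrays and near 0 elsewhere.

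The interferon pathway that induces many Schlafen genes was largely higher in tg/tg than in WT lungs. Of 19 genes of interferons, their receptors and their signalling that were tested, 16 were higher and 1 lower, with a median log2 difference of 0.49. Over all genes tested, 33.8% were called higher in this comparison. Ifng, the cytokine interferon-gamma, was 95.1-fold higher, Irf7 11.2-fold and Irf1 3.98-fold, Irf7 and Irf1 being transcription factors of the pathway. Irf3, another such factor, was the member lower, by 1.13-fold. In tg/wt lungs 10 of the 19 were higher than in WT lungs and 9 were not called. Ifng was 6.05-fold higher there. Of the 10, Ifna1 was well above background on the tg/wt arrays alone. It therefore passed the filter on dim probes only where it is high. Of 23 interferon-induced genes that restrict or sense RNA, as several Schlafen proteins do, all 23 were higher in tg/tg than in WT lungs, with a median of 2.14. Oas3 was 36.0-fold higher, Zbp1 24.6-fold, Isg15 8.78-fold and Ifit2 7.30-fold. In tg/wt lungs 7 of the 23 were higher than in WT lungs and 2, Isg20 and Rsad2, were lower, with a median of 0.15. Of all genes tested, 13.4% were called higher and 14.6% lower in tg/wt against WT lungs.

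Genes linked to the known actions of Slfn2 were counted next. Of 13 genes for transfer RNA cleavage and its control, 1 was higher and 9 were lower in tg/tg than in WT lungs, with a median log2 difference of -0.37, where 40.8% of all genes tested were called lower and 33.8% higher. Rnh1, the inhibitor of secreted ribonucleases, was 1.81-fold higher, while the ribonucleases Rnase4, Ang2 and Ang were lower by 1.70-fold, 1.64-fold and 1.48-fold. Of 18 genes of T cell quiescence, 4 were higher and 13 lower, with a median of -0.36. Il7r, the receptor for the survival cytokine interleukin-7, was 5.33-fold higher and the growth-inhibiting Btg1 2.54-fold higher, while Ccr7, the lymph node homing receptor, was 3.05-fold lower and Klf4 2.40-fold lower. Several of these genes, such as Klf4, are also expressed outside T cells. Of 17 proliferation genes, 16 were higher in tg/tg than in WT lungs and 1 was not called, with a median of 1.82: Ccnb1 was 6.27-fold higher, Aurkb 4.69-fold, Cdk1 4.48-fold and Top2a 4.46-fold. In tg/wt lungs 13 of the 17 were higher than in WT lungs, with a median of 0.67. There, 1 of the transfer RNA genes was higher and 2 lower, and 3 of the quiescence genes were higher and 2 lower, shares near the 13.4% higher and 14.6% lower of all genes tested.

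Myeloid activation genes, listed because Slfn4 is a gene of activated myeloid cells, were higher in tg/tg than in WT lungs in 16 of 17 cases and lower in 1, Tlr9. Of the 16, Cxcl2, Il6, Il10 and Nos2 were well above background on the tg/tg arrays alone and so passed the filter on dim probes only where they are high, which leaves 12 higher of 13. Of all genes tested, 33.8% were called higher and 40.8% lower between tg/tg and WT lungs. Arg1, the enzyme arginase 1, was 105-fold higher and the cytokine Tnf 47.6-fold higher. Il6 was at least 32.2-fold higher and Cxcl2, a chemokine for neutrophils, at least 9.39-fold higher. Without these 4 genes, whose tg/wt and WT spots have no usable order, 2 of the 13 were higher in tg/wt than in WT lungs and 7 lower. Among those lower were the neutrophil proteins S100a8 by 4.09-fold and S100a9 by 3.88-fold and the cytokine Il1b by 1.95-fold, and Tnf was 2.56-fold higher. Between tg/wt and WT lungs 13.4% of all genes tested were called higher and 14.6% lower. S100a8 and S100a9 are also among the neutrophil markers counted below.

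Marker genes of cell types were set beside these differences. Against WT, 33.8% of all genes tested were called higher in tg/tg lungs, and 13.4% higher and 14.6% lower in tg/wt lungs. Neutrophil markers were higher in tg/tg than in WT lungs in 10 of 11 cases and lower in tg/wt than in WT lungs in 11 of 11. Their summed level is given in units of the array's 75th percentile. It was 69.3 to 71.5 on the tg/tg arrays, 16.1 to 16.5 on the tg/wt arrays, and 57.0 to 58.3 on the WT arrays. The groups had the same order in this sum as in the means of Slfn4, Slfn5 and Slfn1. Slfn5 and Slfn1 were not called between tg/wt and WT lungs, and the Slfn1 arrays of these groups overlapped. Of that sum, 77.1% to 85.3% on an array came from S100a9, and without it the sum was 14.7 to 15.5 on the tg/tg arrays, 3.67 to 3.68 on the tg/wt arrays, and 8.57 to 8.75 on the WT arrays. Neither tg/wt spot of Camp and Ngp and 1 of the 2 of Mpo was well above background. T cell markers were higher in 14 of 14 cases in tg/tg lungs and in 11 of 14 in tg/wt lungs, each against WT. Of them, Trat1 was well above background in tg/tg lungs alone. The T cell sums were 54.4 to 55.0 on the tg/tg arrays, 12.0 to 12.1 on the tg/wt arrays, and 6.50 to 6.79 on the WT arrays. This order was also seen in the means of Slfn9, Slfn8 and Slfn2. Slfn8 and Slfn2 were not called between tg/wt and WT lungs, and no WT spot of Slfn9 or Slfn8 was well above background. Monocyte and interstitial macrophage markers were higher in 10 of 10 cases in tg/tg lungs, with summed levels of 222 to 230 on the tg/tg arrays, 26.8 to 27.2 on the tg/wt arrays, and 18.3 to 19.0 on the WT arrays, in the same order. NK cell markers were higher in 8 of 10 cases and lower in 1, Ncr1, in tg/tg against WT lungs. The part of these cells in the Schlafen differences was not tested.

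Markers of the lung's own and neighbouring tissues were more often lower. In tg/tg against WT lungs, 40.8% of all genes tested were called lower and 33.8% higher. All 12 endothelial markers were lower in tg/tg than in WT lungs, as were 8 of 11 alveolar macrophage markers, 8 of 13 epithelial markers, 9 of 9 heart muscle markers and 6 of 6 fat markers. Cidec counts in both the alveolar macrophage and the fat list. The alveolar macrophage markers Marco (4.78-fold), Itgax (2.65-fold) and Mrc1 (2.20-fold) and the epithelial markers Sftpd (1.88-fold) and Sftpa1 (1.17-fold) were higher. The heart muscle sum was 13.7 to 14.1 on the tg/tg arrays, 120 to 122 on the tg/wt arrays, and 248 to 251 on the WT arrays, and its part in the differences was not tested. B and plasma cell markers were higher in 4 of 11 cases and lower in 5 in tg/tg against WT lungs, near the shares of all genes. Dendritic cell markers were higher in 2 of 9 cases and lower in 5, and the 4 erythroid markers tested were all lower. Of 8 thymus markers 3 were tested: Dntt (1.89-fold) and Cd1d1 (2.43-fold) were higher in tg/tg than in WT lungs and Ccl25 was lower, while the defining Rag1 and Ptcra were well above background on none of the 6 arrays.

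The genes next to the Schlafen cluster were set beside it, 8 tested genes on each side, a choice made after the values were seen. In tg/tg against WT lungs, 2 of the 8 genes before Slfn5 were higher and 3 lower, with a median log2 difference of -0.045. Of the 8 after Slfn3, 6 were higher and 1 lower, with a median of 0.97. Over all genes tested 33.8% were called higher and 40.8% lower in this comparison. The chemokine genes Ccl1 before the cluster (log2 difference 4.20) and Ccl5 (4.68) and Ccl9 (3.55) after it had the largest differences among these genes. Unc45b, the last of the genes before Slfn5, was lower in tg/tg than in WT lungs (-1.21, adjusted p = 1.13e-05). In tg/wt against WT lungs the 8 genes before Slfn5 all missed the threshold, and after Slfn3 1 was higher, Ccl5 (1.70), and 1 lower, Ccl9 (-0.52).

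The sizes given for the dim members depend on how background is removed. With normexp and an offset of 50, tg/tg lungs stood above WT by 2.47-fold for Slfn1, 2.83-fold for Slfn4, 2.89-fold for Slfn8 and 3.76-fold for Slfn9. They stood above tg/wt by 3.35-fold for Slfn1, 4.88-fold for Slfn4, 2.70-fold for Slfn8 and 3.04-fold for Slfn9. The log2 differences between tg/wt and WT lungs were 0.31 for Slfn9 and -0.79 for Slfn4. These values kept the direction and the call of the ones given above.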

How the data were processed

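Per the labels' protocols, column-purified lung RNA was labelled with Cy3. Per the file headers, the deposited intensity values came from Agilent Feature Extraction 9.5.3.1, while the submitters' processing notes name version 9.1. The processed intensity is background-subtracted, detrended within each array and not scaled between arrays. Probes were named by matching their accessions to RefSeq symbols, since the files hold no gene name column.

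Control spots and spots with an outlier mark were left out. Processed intensity was divided by the array's 75th percentile, and its log2 was fitted in limma 3.58.1 (R 4.3.3, lmFit and eBayes) over all 6 arrays, with 3 residual and 1.77 prior degrees of freedom. Probes had to be well above background on at least 2 arrays, and the probe with the highest mean stood for its gene. Benjamini-Hochberg adjustment ran over 12968 genes, with a threshold of 0.05. Alternatives were other background correction (normexp on median signals), normalization, scaling, filters, a floor, probe rules, variance moderation, samples in the fit, the deposited series table, a block for slide or for replicate number, and each array left out in turn. The number of arrays limits precision.

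Named were all members, Tbx21, up to 4 called genes per list with the largest difference between tg/tg and WT, and the 2 nearest profiles per member; neighbours and genes against their list were named after their values were seen. Some genes that this rule names are not reported here. Members and lists were chosen with earlier results of these data known. The fit was tested on simulated data. Promoters were aligned with Biopython 1.88.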

Additional observations from a re-analysis of the deposited data

How the results depend on the processing

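All members tested kept their direction in both comparisons with tg/tg lungs under every alternative; Slfn3, tested only with choices added after its spot was seen, turned to -0.82 between tg/tg and WT lungs with its marked WT 2 spot kept. With probes well above background on all 6 arrays, 3 members were left to test: 3 were higher in each comparison with tg/tg lungs, and in tg/wt against WT lungs 0 were higher and 0 lower, since Slfn4 and Slfn9 were no longer tested. In tg/wt against WT lungs, 2 members were higher with normexp, and 2 higher and 2 lower with an intensity trend or with only the 2 groups in the fit, since Slfn2 and, except with normexp, Slfn5 then passed. Leaving out each array in turn gave 1 to 2 higher and 1 to 2 lower there, and 1396 to 3473 genes called, against 3622 with all arrays. The number of genes called in that comparison was 2407 without a filter on dim probes. Testing every probe on its own gave 19088 called between tg/tg and WT lungs, 5460 between tg/wt and WT lungs and 18853 between tg/tg and tg/wt lungs, where 27514 probes were tested. Slfn1 also lost its call between tg/tg and WT lungs without that filter (adjusted p = 0.0601).

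Same-numbered arrays did not deviate together (correlations of -0.046, -0.048 and 0.13). With 2 arrays per group, this cannot show whether the numbers pair arrays. With a replicate block 9447, 2615 and 9363 genes were called in the 3 comparisons, and no Schlafen call changed. Slide as a block could not be fitted in comparisons with tg/wt. Intensities near background, as for Slfn8, Slfn9 and Slfn3 in WT and tg/wt lungs, limit what a fold can show.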
